A study of Mus musculus with 43 samples.

Results

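The 8 genes described here mark the resident macrophage of the lung air space were followed through sorted lung phagocytes of newborn mice: Siglecf, Marco, Pparg, Car4, Ear1, Ear2, Chil3 and Krt79. They were chosen by name, with earlier results of these data known. Their rows in the deposited count table are those whose Ensembl identifiers belong to these symbols, and all 8 were found among its 37991 genes. Alveolar macrophages arise from fetal monocytes that enter the lung before birth and mature in the first days of air breathing. Granulocyte-macrophage colony-stimulating factor (GM-CSF) and TGF-β induce the nuclear receptor PPARγ in them, and PPARγ is required for the mature cell, which clears surfactant lipid and inhaled particles. High Siglec-F and CD11c on the surface are the usual flow cytometric signature of the cell.

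The mice were C57BL/6 neonates taken within 6 hours of birth, pooled across litters and allotted at random either to normoxia or to hyperoxia (FiO2 0.9), and lungs were collected 1.5 days later. Lung digests were sorted into alveolar macrophages (AM, SiglecFhi and CD11chi), dendritic cells (DC, MHCIIhi and CD11chi) and 2 sorts of monocytes/macrophages, Ly6Chi (CD11clo) and Ly6Clo (CD11chi). No genetic change or drug was used in any group, and normoxia is the control. In normoxia there were 6 libraries each of AM, DC and Ly6Chi and 5 of Ly6Clo, and in hyperoxia 5 of each, from litters 93, 100 and 108. Among the 5 hyperoxic libraries of a sort, litters 93 and 108 gave 2 each and litter 100 gave 1 (replicate 3). Which pup a library came from is not given in the labels, so libraries of different sorts may share a pup. Nor is it said what the litter number of a library stands for after litters were mixed, and the number is used here as given. The p-values measure the spread between these libraries. Total counts ran from 551960 to 2403861 per library, and 5 of the 43 libraries, 4 of them AM, held under 1000000.

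Ear1 and Ear2 encode eosinophil-associated ribonucleases, small secreted enzymes of the RNase A family named after their discovery in eosinophils and also made by lung macrophages. The genes are near copies, so their sequences bear on how far their counts can be separated. Their transcripts are identical at 96% of 719 aligned positions, and 20 substitutions and 3 gap positions separate the coding parts. The stretch of 120 coding bases without gaps that holds the most differences, coding bases 51 to 170, is shown from the GRCm38 transcripts with the 8 differing bases in capitals.

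Ear1 coding stretch: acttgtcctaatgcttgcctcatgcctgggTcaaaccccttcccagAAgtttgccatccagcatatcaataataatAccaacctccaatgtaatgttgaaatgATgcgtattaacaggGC

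Ear2 coding stretch: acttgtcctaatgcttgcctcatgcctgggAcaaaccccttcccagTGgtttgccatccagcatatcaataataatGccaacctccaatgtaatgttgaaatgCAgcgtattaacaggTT

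Of all stretches of 50 bases in the Ear1 transcript, 57.4% also occur in another gene, and of those in Ear2 41.5%, the other genes being each other, Ear6, Ear10, Ear-ps2 and Ear-ps9. For Chil3 the share was 29.4% (with Chil4 and Gm6522), for Siglecf 0.235%, and for Marco, Pparg, Car4 and Krt79 it was 0. How reads that match more than 1 gene were counted is not given in the sources used here, so the counts of Ear1, Ear2 and Chil3 are uncertain to that extent. Ear10, Ear14 and Chil4 had mean levels of at most 0.474 CPM (counts in a library scaled to 1000000) in every group.

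The promoters of Ear1 and Ear2 are as alike as their transcripts. They are printed from the RefSeq table of build GRCm38.p6, 250 bases before to 50 after the start, each 5′ to 3′ on its own strand with the bases that differ in capitals. Over 303 aligned positions 294 are identical, and the rest are 3 substitutions and 3 unpaired bases in each gene.

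Ear1 promoter, chr14:43819590-43819889, minus strand: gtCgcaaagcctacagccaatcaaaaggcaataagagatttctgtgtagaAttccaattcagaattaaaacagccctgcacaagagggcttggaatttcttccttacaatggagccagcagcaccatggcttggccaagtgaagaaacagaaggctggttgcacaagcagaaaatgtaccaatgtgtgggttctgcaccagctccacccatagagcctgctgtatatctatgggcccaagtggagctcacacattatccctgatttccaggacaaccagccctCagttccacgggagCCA

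Ear2 promoter, chr14:44102404-44102703, plus strand: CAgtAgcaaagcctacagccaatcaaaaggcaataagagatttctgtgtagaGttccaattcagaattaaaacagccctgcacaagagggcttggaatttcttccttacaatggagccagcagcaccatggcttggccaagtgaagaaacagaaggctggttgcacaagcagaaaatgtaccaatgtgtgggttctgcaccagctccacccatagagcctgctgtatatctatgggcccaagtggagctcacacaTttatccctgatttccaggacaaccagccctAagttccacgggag

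The window is 97% identical, and the counted levels of the pair differed to unlike degrees between cell sorts. Per kilobase of exon, Ear1 was at 227.5 ± 19.8 CPM per kb (SD, n = 6) in normoxic AM and 4.97 ± 4.03 (n = 6) in normoxic DC. Ear2 was at 588 ± 123 CPM per kb in the same AM libraries and 212 ± 45.7 in the same DC libraries. Reads shared between genes, and the narrow range of Ear2 counts described below, bear on this contrast. Their part in it was not tested. A search of the member promoters on both strands for GAGGAAGT (PU.1), TTCNNNGAA (STAT), CACGTG (E-box) and the direct repeat of AGGTCA with 1 base between (PPAR) gave 1 match, TTCTTAGAA at -172 from the start of Chil3. Among 32851 promoters of the same length, these motifs occur in 3.2%, 8.3%, 7.15% and 0.0396%.

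Within normoxic AM the members spanned a wide range of levels. Per kilobase of exon, Ear2 was highest (588 CPM per kb), followed by Car4 (401), Chil3 (237), Ear1 (227.5), Marco (136), Pparg (103), Siglecf (47.1) and Krt79 (13.2). The divisor is the length of all annotated exons of a gene, 1966 bases for Car4, whose longest transcript has 1256. With that transcript's length Car4 would stand above Ear2, so their order depends on the length used. Other alveolar macrophage genes followed the gate: the summed level of 21 other alveolar macrophage genes was 8287 to 10300 CPM in normoxic AM, against 5675 to 7522 in Ly6Clo, 483 to 1264 in Ly6Chi and a median of 1573 in DC. Eosinophils also carry Siglec-F, and the 7 eosinophil markers summed to at most 9.12 CPM in any AM library. The eosinophil peroxidase gene Epx and the granule protein gene Prg3 were at 0 in every AM library. Epithelial markers were not low: their sum over 14 genes ran from 529 to 3193 CPM in normoxic AM.

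**Figure D1:**
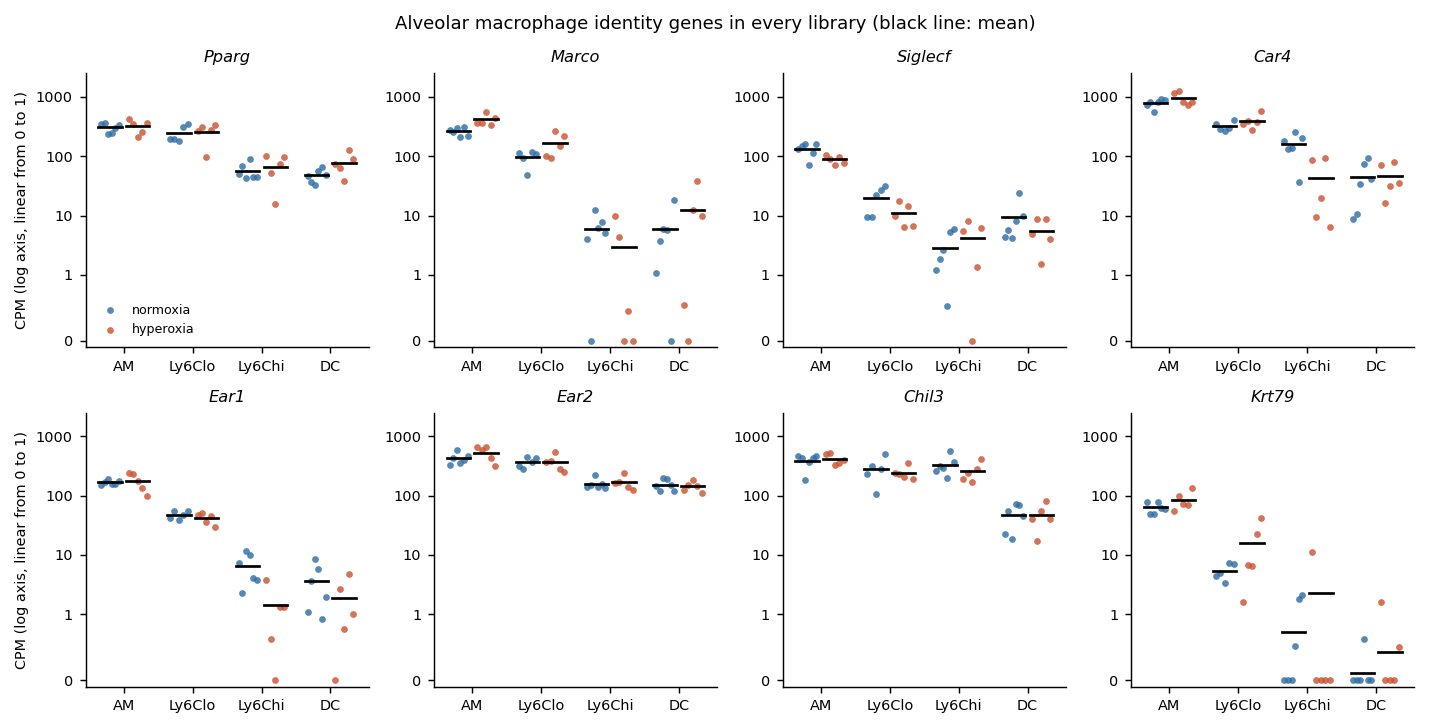
Level of each member in all 43 libraries, in CPM on an axis that is linear from 0 to 1 and logarithmic above. Each point is a library (blue normoxia, orange hyperoxia), each black line a group mean, and each panel a gene. The AM means are the highest in each panel. Ly6Clo points overlap with AM points for Pparg and Ear2, and hyperoxic Ly6Clo points with normoxic AM points for Marco and Car4. For Chil3 the points of AM, Ly6Clo and Ly6Chi overlap.

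Pparg, the transcription factor of the group, was high in both CD11chi macrophage sorts. In normoxic AM it ran from 239 to 368 CPM (median 317) and in normoxic Ly6Clo the 5 libraries were at 198, 198, 181, 314 and 348 CPM. These ranges overlap. The normoxic Ly6Chi libraries (42.7 to 89.2 CPM, median 48.1) and DC libraries (32.7 to 65.6 CPM, median 47.3) all lay below them. In the order of the 8 group means, the 4 groups of AM and Ly6Clo came first (320.3, 305, 256 and 248 CPM) and could not be ordered among themselves, since neighbouring groups overlapped. The next group, hyperoxic DC at 78.2 ± 32.7 CPM (SD, n = 5), did not overlap with normoxic Ly6Clo. Hyperoxic Ly6Clo did overlap with DC and Ly6Chi, through its replicate 3 at 96.5 CPM. Hyperoxic DC replicate 4 was at 126.5 CPM and hyperoxic Ly6Chi replicate 1 at 99.0 CPM.

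Marco is a class A scavenger receptor that binds bacteria and particles. It stood at 209 to 306 CPM in normoxic AM (median 269.5), and at 113, 91.9, 48.1, 118 and 109 CPM in normoxic Ly6Clo. No library of either other sort in normoxia exceeded 18.6 CPM, so the AM and Ly6Clo libraries are set apart both from each other and from the rest. Siglecf, the gene of the sialic acid-binding receptor used for the AM gate, ran from 72.4 to 161 CPM in normoxic AM (median 140). The normoxic Ly6Clo libraries were at 9.35, 9.47, 21.9, 27.3 and 31.4 CPM. The difference in Siglecf is a check of the sort rather than a finding.

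Car4 encodes a membrane-bound carbonic anhydrase, an enzyme that interconverts carbon dioxide and bicarbonate, and is also expressed by lung capillary endothelium. Its level was 549.5 to 928 CPM in normoxic AM (median 820) and 264 to 410 CPM in normoxic Ly6Clo, with no overlap. The normoxic Ly6Chi libraries spread from 36.1 to 254 CPM and the DC libraries from 8.65 to 94.9 CPM. Relative to its mean, Car4 varied most between libraries in these last sorts.

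For the ribonucleases, Ear1 separated all sorts but Ly6Chi and DC. It was at 149 to 187 CPM in normoxic AM (median 165), and at 41.1, 55.2, 38.0, 47.2 and 55.0 CPM in normoxic Ly6Clo. The highest normoxic library of Ly6Chi was at 11.7 CPM and that of DC at 8.38 CPM. Ear2 was at 328 to 575 CPM in normoxic AM (median 409.5) and at 318, 281, 438, 360 and 432 CPM in normoxic Ly6Clo, so that the 2 sorts overlap. It was also well above 0 in normoxic Ly6Chi (132 to 220 CPM) and DC (120 to 198 CPM).

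Ear2 counts varied less than the libraries' totals. They ran from 220 to 576 over all 43 libraries, 2.62-fold, while totals ran 4.36-fold. Within normoxic Ly6Clo they were 488 to 519 while totals varied 1.48-fold. The highest Ear2 count was 0.801 per exonic base, against 0.66 for Car4, 0.59 for Chil3 and 0.368 or less for the other members, and 1.73 for the gene with the highest value in the table. As with the levels above, Car4 would stand above Ear2 here with the length of its longest transcript. Since Ear2 counts varied less than totals, the CPM of Ear2 depended on the library's total. In normoxic DC, Ear2 reached 0.441 counts per exonic base, and its counts varied 1.40-fold while totals varied 2.085-fold. Car4 reached 0.640 per exonic base in normoxic AM, where its counts varied 3.89-fold and totals 2.98-fold. Why Ear2 counts varied so little was not tested. Whether reads at the same position were merged before counting is not given in the sources used here. A limit on Ear2 counts could bring its levels in some sorts closer together, and would also raise its CPM in libraries of small total. In hyperoxia its counts summed to 2254 in the 5 AM libraries and 2246 in the 5 Ly6Clo libraries. The part of library totals in the difference of Ear2 between these sorts was not tested. A limit would bear on that difference, on the share of the AM level that Ly6Clo reaches and on the rank of Ear2 among the members. It would also bear on the contrast of Ear2 with Ear1 over the sorts.

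**Figure D2:**
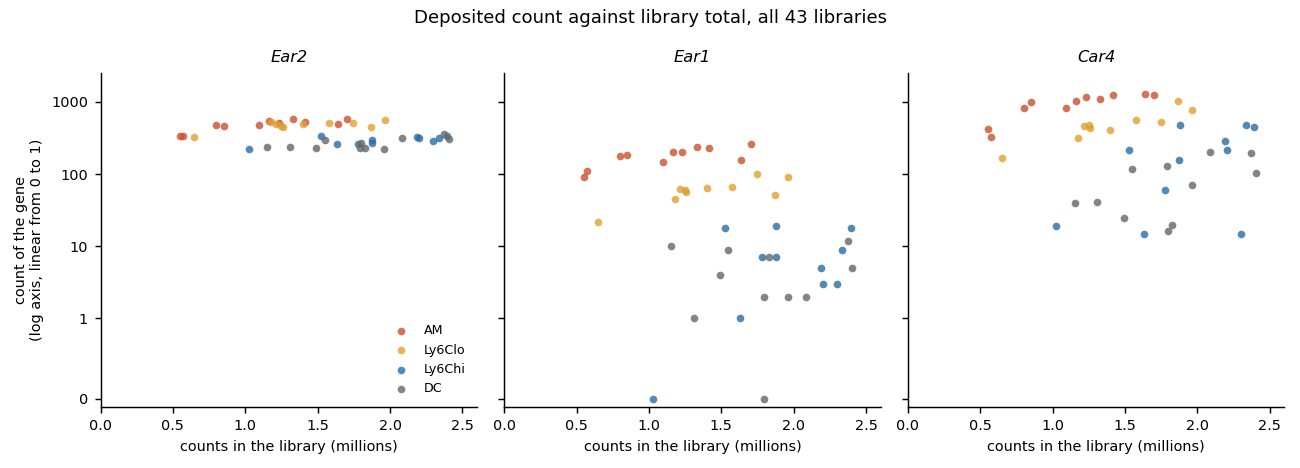
Deposited count of Ear2, Ear1 and Car4 (y axis, counts) against the library total (x axis, in units of 1000000 counts), 1 point per library, coloured by sorted population. Ear2 stays between 220 and 576 counts while totals run from 551960 to 2403861.

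Chil3 encodes Ym1, a secreted chitinase-like protein of macrophages that is also made by monocytes and neutrophils. It was at 183 to 459 CPM in normoxic AM (median 428), 108 to 496 CPM in normoxic Ly6Clo and 198 to 556 CPM in normoxic Ly6Chi, 3 ranges that overlap. Only DC stood apart, at 18.4 to 72.6 CPM. Krt79 encodes a type II keratin, an unusual gene for a blood cell. It was at 48.5 to 79.2 CPM in normoxic AM (median 61.0) and at 4.36, 5.01, 3.38, 7.38 and 6.99 CPM in normoxic Ly6Clo. In the 6 normoxic DC libraries together there was 1 count of Krt79, against 501 in AM, a ratio of pooled shares of 731 with an exact 95% interval of 131 to 28940 that covers counting error only.

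Comparing the sorts in normoxia by edgeR's quasi-likelihood test with litter in the model, at a Benjamini-Hochberg adjusted p under 0.05, all 8 members were higher in AM than in DC, where 22.4% of 11979 genes were. Against Ly6Chi, 7 were higher (24% of genes), all but Chil3 (log2 difference 0.22, 95% interval -0.34 to 0.77). Against Ly6Clo, 5 were higher (7.28% of genes). These were Krt79 (log2 difference 3.49 ± 0.42 SE, adjusted p 7.56e-07), Siglecf (2.75 ± 0.35, adjusted p 1.57e-06), Ear1 (1.83 ± 0.27, adjusted p 1.27e-05), Marco (1.40 ± 0.42, adjusted p 0.0214) and Car4 (1.25 ± 0.43, adjusted p 0.0467). Pparg (0.30, interval -0.13 to 0.73), Ear2 (0.22, -0.06 to 0.50) and Chil3 (0.42, -0.17 to 1.01) did not pass. Siglecf is included in all these counts of members higher in AM and in those below. Since Siglec-F set the AM gate, its place in them is a check of the sort only. In bulk samples, fewer cells with a transcript and less of it in each cell cannot be told apart.

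The calls for Marco and Car4 were the least secure of these. For Marco, the adjusted p was 0.0565 without Ly6Clo replicate 3 and 0.0536 without Ly6Clo replicate 5, which leaves 3 members called. For Car4 the adjusted p rose above 0.05, and the call was lost, when any of 15 single libraries was left out. Among them were each of the 5 Ly6Clo libraries (0.0553 to 0.102) and each AM library but replicate 3 (0.0611 to 0.085). The others were Ly6Chi replicate 1, 2, 3 or 6 and DC replicate 6 (0.0517 to 0.0564). The Car4 call was also lost without litter 93 (0.106), litter 100 (0.184) or litter 108 (0.0536). The fold change of Car4 moved little, between 1.17 and 1.37 on the log2 scale. Endothelial markers moved the same way: 8 of 10 were positive, 2 of them called, with a median log2 difference of 1.07, none at 0, and sums of at most 1128 CPM (median 527) in AM and at most 442 (median 266) in Ly6Clo. Their part in the Car4 difference was not tested. By levels alone, every AM library lay above every Ly6Clo library for 5 of 8 members, the same 5 that were called, where 3.71% of genes did so. The corresponding counts were 7 of 8 against Ly6Chi (12% of genes) and 8 of 8 against DC (9.88%).

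The Ly6Clo mean lay between those of AM and the other sorts for 7 of the 8 members in normoxia. The exception was Chil3, at 332 CPM in Ly6Chi and 284 in Ly6Clo, groups that overlap. The mean of Ly6Clo as a percent of the normoxic AM mean was 86.5 for Ear2, 81.1 for Pparg, 73.4 for Chil3, 40.9 for Car4, 36.7 for Marco, 28.5 for Ear1, 15.2 for Siglecf and 8.63 for Krt79. All 8 members were lower in DC than in Ly6Clo (12.7% of genes lower), and 6 of 8 were lower in Ly6Chi than in Ly6Clo (15% of genes), with log2 differences from -1.17 for Ear2 to -4.12 for Marco. Between DC and Ly6Chi in normoxia, Siglecf was higher in DC, and Car4 and Chil3 were lower, where 28.7% of genes differed. Median percentages of the AM mean were 38.8 for Ly6Clo, 11.2 for Ly6Chi and 6.37 for DC. Interstitial macrophage markers moved the opposite way. Of 11 tested in AM against Ly6Clo, 10 were lower in AM (14.2% of genes), led by Cx3cr1 (-4.99), C1qa (-5.96) and C1qc, and their sum was 512 to 969 CPM in AM and 2550 to 4290 CPM in Ly6Clo. Their part in the members' differences was not tested.

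**Figure D3:**
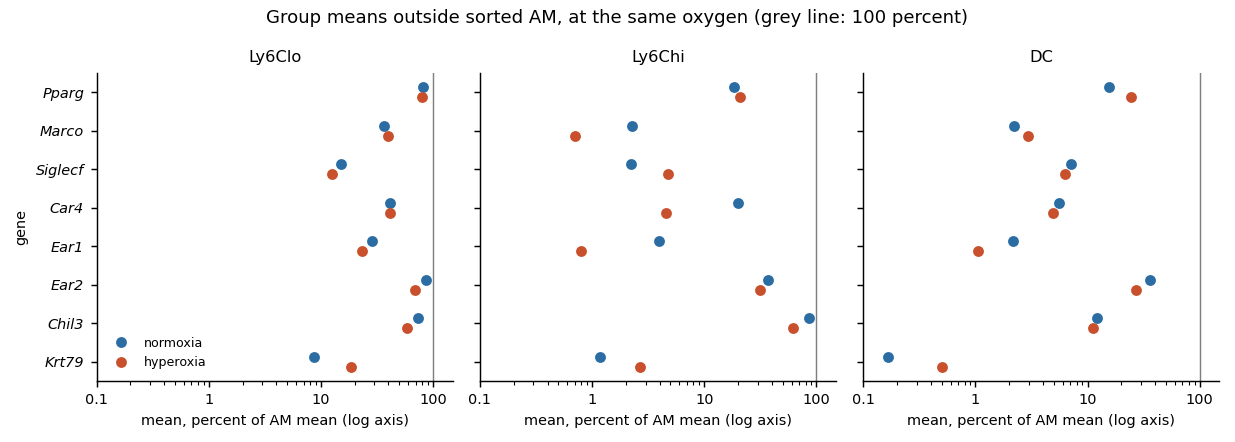
Group mean of each member as a percent of the AM mean at the same oxygen level, on a logarithmic axis, for Ly6Clo, Ly6Chi and DC. Blue is normoxia and orange hyperoxia. In Ly6Clo the values run from 8.63% for Krt79 to 86.5% for Ear2 in normoxia.

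Under hyperoxia the sorts were compared in the same way, and Siglecf in AM again counts only as a check of the sort. All 8 were higher in AM than in DC (22.3% of 11504 genes), and all 8 were higher than in Ly6Chi (22.3%). The call for Chil3 against Ly6Chi (0.73 ± 0.27, adjusted p 0.0361) was lost without any of 6 single libraries: AM replicate 1 or 2, or Ly6Chi replicate 1, 2, 3 or 4 (adjusted p 0.0627 to 0.0978). Without the libraries under 1000000 counts this difference fell to 0.20 (adjusted p 0.713), and without litter 93 to 0.34 (adjusted p 0.452). The call was also lost without litter 100 (adjusted p 0.0851) and with counts corrected for a ceiling (adjusted p 0.0539). Against Ly6Clo 3 members were higher (4.68% of genes): Siglecf (3.07 ± 0.38, adjusted p 3.53e-05), Ear1 (2.06 ± 0.33, adjusted p 0.000471) and Ear2 (0.56 ± 0.13, adjusted p 0.00923). All 3 calls were lost without litter 93 (adjusted p 0.0525 for Siglecf, 0.116 for Ear1 and 0.49 for Ear2). Without the libraries under 1000000 counts, which include 3 of the 5 hyperoxic AM libraries, those of Ear1 (0.221) and Ear2 (0.317) were lost, and without the litter term that of Ear2 (0.206). Krt79 (2.51 ± 0.83, adjusted p 0.0633), Marco (1.44 ± 0.59, adjusted p 0.132), Car4 (1.30 ± 0.54, adjusted p 0.137), Chil3 (0.82 ± 0.28, adjusted p 0.0612) and Pparg (0.42 ± 0.22, adjusted p 0.223) did not pass, although the differences of Marco and Car4 were as large as in normoxia. Krt79 passed without Ly6Chi replicate 1 (adjusted p 0.00534), Ly6Chi replicate 4 (0.0485), Ly6Chi replicate 5 (0.0472) or Ly6Clo replicate 5 (0.0355), and Chil3 without DC replicate 2 (0.0279) or AM replicate 5 (0.0478). Every hyperoxic AM library lay above every hyperoxic Ly6Clo library for 5 members (1.76% of genes), above every Ly6Chi library for 7 (10.2%) and above every DC library for 8 (11.2%). In DC 7 members were lower than in Ly6Clo (13.2% of genes), 6 were lower in Ly6Chi than in Ly6Clo (15.1%), and between DC and Ly6Chi only Chil3 differed (19.5% of genes).

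The response of the members to oxygen was then tested within each sort, with litter in the model. In AM none of the 8 members passed, where 0.11% of 9986 genes did. At an unadjusted p under 0.05 there were 2 members, Marco and Siglecf, or 2 of 8 where 9.91% of genes reached that level. The median log2 fold change of the members was 0.09, against -0.01 for all genes tested.

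Marco came closest. It was at 281, 258, 302, 209, 306 and 216 CPM in the 6 normoxic AM libraries and at 369, 362, 561, 340 and 447 CPM in the 5 hyperoxic ones. All hyperoxic libraries lay above all normoxic ones, as for 0.921% of genes. The log2 fold change was 0.65 ± 0.15 (SE; 95% interval 0.33 to 0.96) with an adjusted p of 0.160, and the hyperoxic libraries were higher in litter 93 by 0.44, in litter 100 by 1.16 and in litter 108 by 0.60. The same sign in every litter was found for 32.4% of genes. By DESeq2 the value was 0.65 with an adjusted p of 0.0150, which passes, and without the filter on low counts the adjusted p was 0.00152. DESeq2 called 110 genes in AM and the fit without the filter 325, against 11 by edgeR with the filter. Leaving out 1 library gave values of 0.50 to 0.74.

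Siglecf pointed the other way. It was at 131, 148, 161, 72.4, 114 and 161 CPM in normoxic AM and at 105, 90.3, 70.3, 98.5 and 77.0 CPM in hyperoxic AM. The groups overlap through 1 normoxic library of litter 100, replicate 4 at 72.4 CPM. The log2 fold change was -0.63 ± 0.20 (interval -1.05 to -0.21, adjusted p 0.263), and the difference was negative in all 3 litters (-0.52, -0.61 and -0.64). Because Siglec-F set the AM gate, the level of Siglecf in sorted AM is not independent of the sort.

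Krt79 in AM was at 79.2, 48.5, 49.2, 78.4, 62.6 and 59.4 CPM in normoxia and 54.4, 96.5, 72.3, 70.1 and 132 CPM in hyperoxia, a log2 fold change of 0.39 ± 0.24 (adjusted p 0.632) with a positive difference in each litter. Pparg stood at 344, 368, 239, 248, 294 and 339 CPM against 426, 342, 213, 260 and 360 CPM. The groups overlap almost wholly, and the log2 fold change of Pparg was -0.04 (interval -0.30 to 0.23). Its interval is the narrowest of the 8 members.

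The remaining AM members, Car4, Ear1, Ear2 and Chil3, differed between litters. For Ear2, hyperoxia minus normoxia was 0.74 in litter 93, 0.53 in litter 100 and -0.24 in litter 108 on the log2 scale. Ear1 showed 0.56, 0.07 and -0.55, Car4 0.65, 0.27 and -0.25, and Chil3 0.21, 0.34 and -0.26. The 3 hyperoxic AM libraries of litters 93 and 100 held 799097, 849561 and 551960 counts, and those of litter 108 held 1094519 and 1636916. Fitted over all litters, the log2 fold changes were 0.29 ± 0.18 for Ear2, 0.18 ± 0.16 for Car4, 0.01 ± 0.16 for Chil3 and 0.00 ± 0.19 for Ear1 (adjusted p 0.617, 0.761, 0.993 and 0.997). Without the libraries under 1000000 counts, they were -0.24 for Ear2, -0.26 for Car4, -0.27 for Chil3 and -0.56 for Ear1, while Marco was at 0.58 and Siglecf at -0.66. Library size and litter cannot be told apart here, since every hyperoxic AM library of litters 93 and 100 is small.

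**Figure D4:**
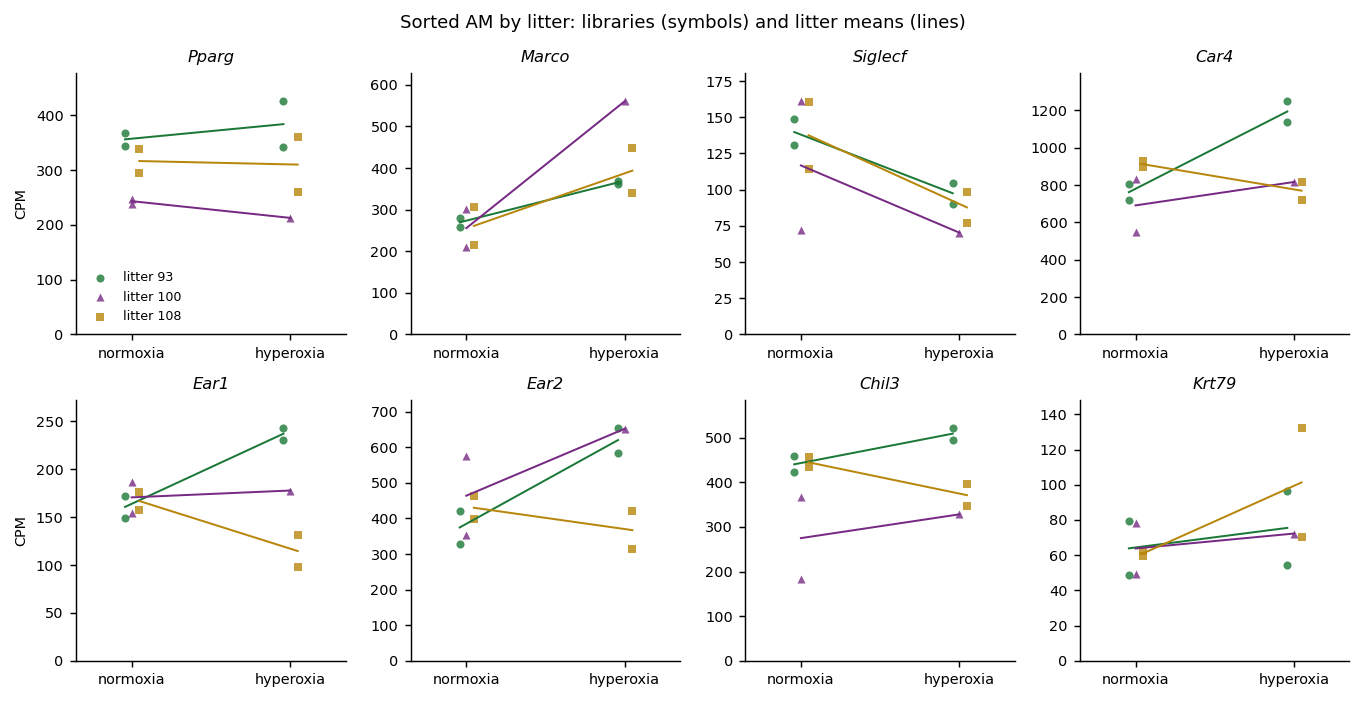
Members in AM by litter. Each symbol is 1 library in CPM, lines join the litter means of normoxia and hyperoxia, and every axis starts at 0. The 3 lines of Marco slope upward and those of Siglecf downward, while for Ear1, Ear2, Car4 and Chil3 the line of litter 108 slopes against the others.

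Other cell types' markers also moved in AM under hyperoxia, none of them passing the test. All 13 epithelial markers tested had negative fold changes (median -1.35), and their sum was 529 to 3193 CPM in normoxia and 250.4 to 2516 in hyperoxia. Of 9 interstitial macrophage markers tested, 8 had positive ones (median 0.84), with sums of 512 to 969 and 734.5 to 1396 CPM. Endothelial markers were negative in 7 of 9 (median -0.31), while 6 of 7 classical monocyte markers (median 0.47), 3 of 4 neutrophil markers and 2 of 5 dendritic cell markers were positive. Of 6 genes of alternative activation, with which Chil3 is often grouped, 5 were negative (median -0.20). Their part in the values of Marco and Siglecf was not tested.

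In the other sorts the hyperoxia test also called no member, and no gene at all passed (0% in DC, Ly6Chi and Ly6Clo). At an unadjusted p under 0.05 there was 1 member of 6 tested in DC (8.85% of 11274 genes), 1 of 4 in Ly6Chi (5.45% of 10844) and 1 of 7 in Ly6Clo (5.3% of 10188). By DESeq2, 20 genes passed in DC, 5 in Ly6Chi and 1 in Ly6Clo, and no member was among them.

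The Ly6Clo member under 0.05 unadjusted was Marco. It was at 113, 91.9, 48.1, 118 and 109 CPM in normoxia and 99.8, 91.6, 268, 146 and 218 CPM in hyperoxia. Of the hyperoxic libraries 3 lay above all normoxic ones, and both of litter 93 did not. The log2 fold change was 0.69 ± 0.31 (interval 0.01 to 1.36, adjusted p 0.860), with litter differences of -0.09, 1.82 and 0.71. Without hyperoxic replicate 3, a library of 647844 counts, it was 0.22. Siglecf in Ly6Clo was at -0.71 ± 0.46, or -0.23 without normoxic replicate 5, and the others lay between -0.32 (Chil3) and 0.17 (Car4). Pparg was at -0.13 ± 0.27, Ear1 at -0.22 ± 0.23 and Ear2 at 0.05 ± 0.19. Krt79 was too low to be tested there. Its 5 hyperoxic Ly6Clo libraries were at 1.62, 6.67, 6.54, 22.5 and 41.3 CPM, the last 2 being those of litter 108.

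In Ly6Chi the member under 0.05 unadjusted was Chil3, at 263, 316, 290, 198, 556 and 372 CPM in normoxia and 190, 239, 166, 277 and 417 CPM in hyperoxia. The groups overlap, but the difference was negative in each litter (-0.43, -0.52 and -0.42; 27.6% of genes had 1 sign in all litters), and the fit gave -0.45 ± 0.15 (interval -0.77 to -0.14, adjusted p 0.758). Car4 was at 180, 134, 140, 254, 36.1 and 201 CPM in normoxia and 85.0, 9.43, 20.1, 94.9 and 6.50 CPM in hyperoxia. Its log2 fold change was -1.80 ± 0.84 (interval -3.73 to 0.12, adjusted p 0.758), and it too was negative in each litter. Without the filter on low counts the value was -1.81 with an adjusted p of 1.53e-17, which passes, and leaving out hyperoxic replicate 4 moved it to -2.66. The fit without the filter called 235 genes in Ly6Chi, against 0 with it, and the Car4 libraries of the 2 conditions overlap. Endothelial markers moved with Car4 in these libraries: all 10 had negative fold changes (median -1.11), none was at 0, and their sum ran from 279 to 796 CPM in normoxia and from 33.3 to 495 in hyperoxia. Their part in the Car4 value was not tested. Pparg (0.16 ± 0.40) and Ear2 (0.12 ± 0.14) were the other members tested in Ly6Chi. Siglecf, Marco, Ear1 and Krt79 were too low, Marco for example being at 9.74, 4.40, 0, 0.446 and 0 CPM in hyperoxia.

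In DC the member under 0.05 unadjusted was Pparg, at 47.0, 37.5, 32.7, 55.5, 65.6 and 47.6 CPM in normoxia and 73.5, 62.4, 38.9, 126 and 89.9 CPM in hyperoxia. In DC 3 hyperoxic libraries lay above all normoxic ones. The log2 fold change was 0.62 ± 0.21 (interval 0.18 to 1.06, adjusted p 0.469), positive in litters 93 and 108 and -0.13 in litter 100. In the same libraries 9 of 11 interstitial macrophage markers had positive fold changes (median 0.34, sums of 2501 to 3281 CPM in normoxia and 2723 to 3907 in hyperoxia), and 9 of 12 dendritic cell markers negative ones (median -0.41, sums of 3636 to 5351 and 3237 to 4807 CPM). Their part in the Pparg value was not tested. The levels of Marco (0 to 38.2 CPM in hyperoxia) and Car4 (16.6 to 78.4 CPM) were scattered in DC, and their intervals covered more than 2 log2 units. Siglecf was at -0.78 ± 0.46, Chil3 at -0.03 ± 0.40 and Ear2 at -0.01 ± 0.12, and Ear1 and Krt79 were too low to be tested. Hyperoxic DC replicate 4 of litter 108 held the highest value of its group for 6 of the 8 members.

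**Figure D5:**
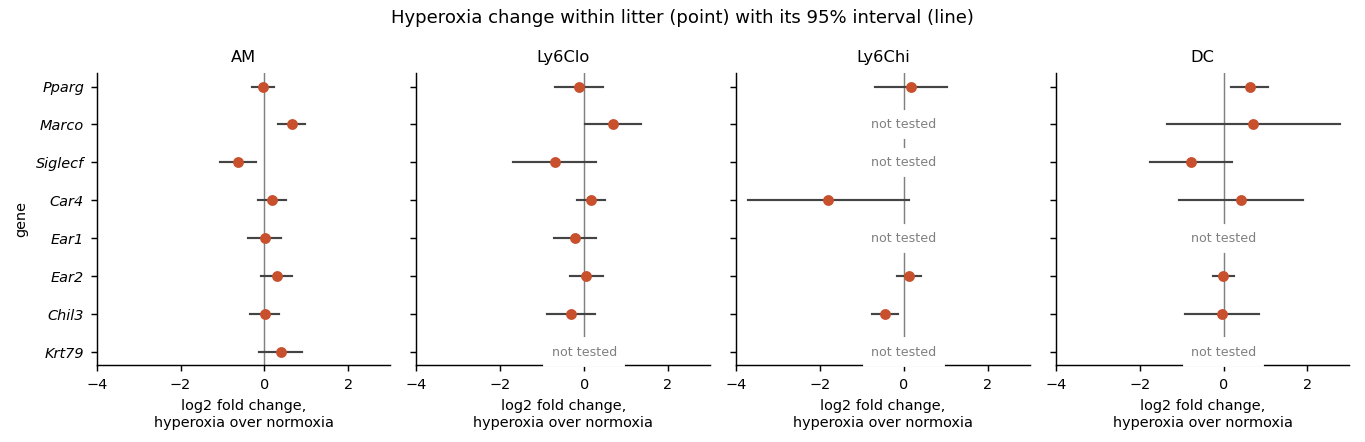
Log2 fold change of each member, hyperoxia against normoxia, with its 95% interval from edgeR, 1 panel per sorted population. Members too low to be tested are marked. The intervals of Marco and Siglecf in AM lie wholly on 1 side of 0, as do those of Marco in Ly6Clo, Chil3 in Ly6Chi and Pparg in DC, and no adjusted p is under 0.05.

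Whether the response to oxygen differed between the sorts was tested in a fit of all 43 libraries. By edgeR no member passed, and no gene of 12529 did (0%), whereas DESeq2 called 17 genes and voom 4. At an unadjusted p under 0.05 there were 2 members, Car4 and Ear1 (adjusted p 0.836 and 0.850). In AM against the mean response of the other 3 sorts, where 0.0239% of genes passed, again no member did. Ear1 had the smallest p of the members there, with a log2 difference of 0.92 ± 0.40 (adjusted p 0.715). Counts of Ear1 in hyperoxic Ly6Chi and DC were 0 to 12 per library, so that this difference rests on few counts.

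Further genes of the alveolar macrophage programme were taken from lists, which were also chosen with earlier results of these data known. Of 20 further alveolar macrophage genes tested, 10 were higher and 0 lower in normoxic AM than in Ly6Clo (median log2 difference 0.66, all genes -0.03). Over all genes tested, 7.28% were higher and 14.2% lower. The 10 included Fabp1 (4.34 ± 0.71, adjusted p 6.94e-05), Krt19 (2.47 ± 0.59, adjusted p 0.00502), both genes also expressed by epithelium, and the protease inhibitor Serpinb1a (1.26 ± 0.16, adjusted p 2.68e-06). Epithelial markers were positive in 14 of 14 in the same comparison, 1 of them called (Cdh1, 1.75), and the part of epithelial RNA in these values was not tested. Of 20 signals and transcription factors of alveolar macrophage differentiation, 3 were higher (Bhlhe41, a repressor needed for alveolar macrophage identity, at 1.25; Rxra, the partner of PPARγ, at 0.67; and the TGF-β receptor Tgfbr2 at 0.51). The 5 lower ones included the macrophage factor Maf (-4.02) and the TGF-β receptor Tgfbr1 (-0.87). Of 11 genes known as PPARγ targets, Abcg1 (0.64), a cholesterol exporter, and Lpl (0.60), lipoprotein lipase, were higher and 0 were lower.

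Under hyperoxia in AM 0 genes of these 3 lists passed by edgeR, and 8 of 20, 3 of 19 and 5 of 11 had an unadjusted p under 0.05, where 9.91% of genes did. Fold changes were positive for 15 of 20 further alveolar macrophage genes (median 0.21), 17 of 19 signals and factors (median 0.12) and 9 of 11 PPARγ targets (median 0.22), beside a median of -0.01 over all genes tested. Bhlhe41 averaged 184.7 ± 60.6 CPM (SD, n = 6) in normoxia and 277.5 ± 101 (n = 5) in hyperoxia, a log2 fold change of 0.63 ± 0.15 (SE) with an adjusted p of 0.170. The same list holds a factor of other macrophages, Maf, which was lower in AM than in Ly6Clo and averaged 5.95 ± 3.52 and 13.1 ± 4.69 CPM here (1.34 ± 0.42, adjusted p 0.263), and some genes stand in more than 1 of the lists, so the counts of signs are not independent. Lpl averaged 1047 ± 213 and 1487 ± 337 CPM (0.50 ± 0.14, adjusted p 0.228), and the fatty acid receptor Cd36 was at 0.41 ± 0.14. On the negative side were the fatty acid-binding protein gene Fabp1, at 17.9 ± 5.21 and 5.95 ± 1.50 CPM (-1.52 ± 0.40, adjusted p 0.202), and the lipid droplet gene Cidec (-0.87 ± 0.22, adjusted p 0.179). Beside Fabp1 stand the 13 epithelial markers, all negative in this comparison (median -1.35), and their part in its value was not tested.

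The ribonuclease gene Ear6 has stretches of 50 bases in common with Ear1, and the part of shared reads in its counts was not tested. Of the members' relatives, Ear6 shared the pattern of Ear1. It averaged 187 ± 34.5 CPM (SD, n = 6) in normoxic AM, 75.0 ± 27.9 (n = 5) in Ly6Clo, 5.13 ± 4.68 (n = 6) in Ly6Chi and 1.03 ± 0.830 (n = 6) in DC, and was the only one of 19 relatives tested that was higher in AM than in Ly6Clo (1.28 ± 0.32, adjusted p 0.00568). Lower in AM were 5 (14.2% of all genes were lower and 7.28% higher), among them the ribonuclease genes Rnase4 (-0.96) and Ang (-1.17) and Siglece (-1.17), an inhibitory relative of Siglecf. In AM under hyperoxia 0 of 15 passed. Car13, a carbonic anhydrase like Car4, had a log2 fold change of 1.14 ± 0.35 (adjusted p 0.263), and the sialic acid receptor gene Cd33 0.39 ± 0.12 (adjusted p 0.239).

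Over the 43 libraries the members followed each other to different degrees. Pearson's r of log2 CPM was highest for Ear1 with Marco (0.915) and lowest for Chil3 with Siglecf (0.408). Among 12235 genes, those most like each member were Trim29 (0.933) and Atp6v0d2 (0.923) for Marco, Cd164 (0.956) and Atp6v1c1 (0.949) for Pparg, and Ccl6 (0.96) and Il18 (0.957) for Ear2. For Ear1 they were Ptpn12 (0.949) and Rgcc (0.948), for Car4 Cyth3 (0.912) and Wwtr1 (0.911), for Siglecf Prkar2b (0.882) and Dhrs7b (0.879), for Chil3 Abcd2 (0.905) and Tmem38b (0.896), and for Krt79 Ankrd63 (0.913) and Tmem216 (0.91). The rank depended on the measure: by Spearman's rho, Abcd2 was at rank 47 for Chil3 and Prkar2b at rank 23 for Siglecf. No gene named here for Siglecf, Car4, Chil3 or Krt79 was among the first 3 by rho. The libraries share sorted populations, litters and scaling, so these values describe the pattern over the sorts and carry no test.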

How the data were processed

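RNA from sorted lung cells was sequenced from SMART-Seq v4 and Nextera XT libraries, which carry no molecular identifiers, per the labels. The authors deposited raw counts (whole numbers, 1 row per Ensembl gene). TopHat, HTSeq 0.4.1, FastQC, Picard and SAMtools and build NCBIM37 are named in the submitters' processing notes, without role or order. Symbols and exonic lengths came from GENCODE M21 (GRCm38), a later build than the files', so no positions are given for the counted genes. Promoters and their positions are those of the RefSeq table (GRCm38.p6). Rows lacking a symbol (0.828% of counts) stayed in the tests and were not named. The 95 pairs of replicates all differed beyond sampling noise.

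The tests used edgeR 4.0.16 and limma 3.58.1 under R 4.3.3, and the plots Python 3.11.15 with matplotlib 3.10.9. Genes were kept by filterByExpr (minimum count 10, minimum total 15), scaled by TMM, and tested by robust quasi-likelihood F tests with litter as an additive term. Benjamini-Hochberg adjustment ran over all genes tested, with a call at an adjusted p under 0.05. Oxygen was tested within each sort, and sorts were compared in 1 fit per oxygen level over all 4 sorts, so that libraries of every sort set the spread. Standard errors and 95% intervals derive from the F statistic. Levels are CPM of TMM-scaled libraries, and differences within litters use log2 CPM with a prior count of 1. The tests were checked on simulated counts.

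Alternatives were DESeq2 1.42.0, limma voom, RLE scaling, no filter, no litter term, leaving out each library, each litter or the libraries under 1000000 counts, and counts corrected for a ceiling of 2 per exonic base. The members and gene lists were chosen with earlier results of these data known. Further genes were named by rule: up to 3 of smallest p in each direction per list, relatives of at least 1 CPM, and the genes most like each member. Epx, Prg3, Ear10, Ear14 and Chil4 were named after their values were seen.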

Additional observations from a re-analysis of the deposited data

Results flagged for a closer look

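In each of 64 group-by-member sets of 5 or 6 libraries, the highest and lowest library were set against the others by Dixon's ratio at its 95% limit, which chance passes in about 1 of 20 sets, and 7 sets passed. In normoxic DC, Siglecf was at 24.2 CPM in replicate 5 (next 9.91), Marco at 18.6 CPM in replicate 6 (next 5.87) and Krt79 at 0.631 CPM in replicate 4, which is 1 count, with 0 in the others. Krt79 was at 11.4 CPM in hyperoxic Ly6Chi replicate 1, with 0 in the other libraries. Ear2 was at 220.0 CPM in normoxic Ly6Chi replicate 3 (next 156). Pparg was at 96.5 CPM in hyperoxic Ly6Clo replicate 3 (next 268), which holds 647844 counts. Chil3 was at 183 CPM in normoxic AM replicate 3 (next 367), which holds 570769 counts.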

How the results depend on the processing

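Of the members' single values under alternatives other than leaving out 1 library, 807 kept direction and call, 35 reversed, 18 gained and 17 lost a call. All 64 group levels stayed within 1 SD under RLE scaling.

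Members called for hyperoxia in AM numbered 1 by DESeq2 and 1 without the filter (Marco both times), against 0. Without the filter 1 was called in Ly6Chi (Car4, -1.81), 3 in the test of a difference between sorts and 1 in AM minus the others (Car4), and all genes called for hyperoxia rose from 11 to 325 in AM and from 0 to 369 in DC, 235 in Ly6Chi and 173 in Ly6Clo. DESeq2 called 110 genes in AM, and leaving out 1 library gave 5 to 39. Without litter 93, and without libraries under 1000000 counts, 0 genes were called in AM. In AM against Ly6Clo in normoxia, 3 members were called without litter 93 and 3 without litter 100, and 3 to 5 without 1 library. By DESeq2 the adjusted p of Marco was 0.0862. In hyperoxia, 6 were called by voom, 7 without the filter, 0 without litter 93, 5 without litter 108 and 1 without the small libraries, against 3, and all genes called fell from 1309 to 16 without litter 93 and 128 without the small libraries. For DC against Ly6Chi, 5 members were called in normoxia without litter 100, and 3 to 5 without 1 library (5 without Ly6Chi replicate 2), and in hyperoxia 3 without the filter and 2 without litter 93. The causes were not tested. Without litter 108 they went from 5977 to 3959 (AM against DC, normoxia) and from 2574 to 1432 (AM against Ly6Clo, normoxia), and without litter 93 to 1639 in the latter, from 5274 to 2798 (AM against DC, hyperoxia) and from 5377 to 2929 (AM against Ly6Chi, hyperoxia).

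Without the replicate block (no litter term) Marco in AM was at 0.637 (adjusted p 0.31) and Siglecf at -0.587 (adjusted p 0.518). That fit called 391 genes between AM and Ly6Clo in hyperoxia, 1298 between DC and Ly6Chi and 1727 between DC and Ly6Clo, and the calls of Ear2 against Ly6Clo (adjusted p 0.206) and Chil3 against Ly6Chi (0.0807) were lost. For hyperoxia 3 values changed sign without the block: Pparg in AM 0.0431, Pparg in Ly6Clo 0.0568 and Ear2 in Ly6Clo -0.00904.

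Other reversed values for hyperoxia in AM were Pparg without litter 100 (0.0207), Car4 without litter 93 (-0.0819) and the small libraries (-0.257), Ear2 without the small libraries (-0.24), Ear1 without the filter (-0.0057), litter 93 (-0.331), litter 100 (-0.00247) or the small libraries (-0.557) and with the ceiling correction (-0.0304), and Chil3 by voom (-0.00237), without the filter (-0.000126), litter 93 (-0.0971), litter 100 (-0.046) or the small libraries (-0.273) and with the ceiling correction (-0.0342). In DC they were Car4 without litter 93 (-0.408), Ear2 without litter 108 (0.02), and Chil3 by voom (0.056) and without litter 93 (0.161). In Ly6Chi it was Pparg without litter 108 (-0.377). In Ly6Clo they were Pparg without litter 100 (0.244) and the small libraries (0.233), and Ear2 without litter 93 (-0.132), litter 100 (-0.094) and the small libraries (-0.105). In AM against Ly6Clo, Pparg reversed in normoxia without litter 93 (-0.0183) and in hyperoxia without the small libraries (-0.0818). In AM minus the others, Siglecf (0.401) and Krt79 (1.1) reversed without litter 93, Pparg without litter 108 (0.0775), and Ear2 (-0.0141) and Chil3 (-0.289) without the small libraries.

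Leaving out 1 library gave, for hyperoxia in AM, Pparg -0.106 to 0.0254, Ear1 -0.128 to 0.158 and Chil3 -0.0809 to 0.0998. In DC it gave Marco -0.0138 to 1.33, Car4 -0.151 to 0.821, Ear2 -0.0699 to 0.0462 and Chil3 -0.23 to 0.22. Pparg ran from -0.0601 to 0.612 in Ly6Chi and -0.271 to 0.233 in Ly6Clo, Ear2 from -0.105 to 0.382 in Ly6Clo, and Krt79 in AM minus the others from -1.57 to 0.565. No value reversed that had been called. Low counts of Krt79, Ear1, Siglecf and Marco limit what can be said of them in Ly6Chi and DC, although no library of these sorts held under 1000000 counts in total. Siglecf and Marco, which were tested in DC, reached 52 and 96 counts in single DC libraries.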
